A study of Mus musculus with 9 samples.

Results

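ON cone bipolar cells of the mouse retina were examined in a single-cell RNA-seq data set of 31089 cells from 9 mice. The cells were selected on 6 genes: Trpm1 at 10 or more per 10000 unique molecular identifiers (UMIs, tags that count RNA molecules), at least 1 UMI each of Grm6 and Isl1, and a sum of Prkca, Car8 and Sebox under 5 per 10000. The rule found 930 cells, 2.99% of all. Retinas came from mice labelled RPE65-ERT2-Cre.miR-211fl.miR-204fl, in which a tamoxifen-activated Cre driven by the Rpe65 promoter can cut floxed alleles of the 2 microRNA genes. By the labels all 9 mice carried the Cre and the floxed alleles. Mice S01 to S04 had corn oil only and were the controls, and mice S05 to S09 had tamoxifen at 75 mg/kg in corn oil and are the double knockouts (dKO). Injections began at postnatal day 28 and ran for 5 days, and the time label reads 6 months, which the study counts from induction. By these labels controls had no tamoxifen, so the agent and the deletion cannot be told apart. The study's text describes its controls in general as mice without Cre that were given tamoxifen. The labels were followed here. The 2 retinas of a mouse were pooled, so the mouse is the replicate. Rpe65 marks the retinal pigment epithelium, a layer behind the retina, so the Cre is not directed at bipolar cells, and the 2 microRNAs themselves were not measured here.

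Bipolar cells carry the light signal from photoreceptors to ganglion cells. ON types depolarize when light comes on: at the dendrite, the metabotropic glutamate receptor mGluR6 (Grm6) holds the cation channel TRPM1 shut in darkness through the G protein Go, and a complex of GPR179, RGS7 and RGS11 speeds the recovery. Rod bipolar cells share this cascade but serve rods, while OFF cone bipolar cells read cone glutamate through AMPA and kainate receptors and lack the cascade. ON cone bipolar cells comprise several types that differ in the depth of their axon endings and in the genes that mark them.

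The deleted microRNAs bear on the choice of cells, since Mir211 lies within Trpm1 and Mir204 within Trpm3. Their mature 5p arms are shown with the seed, bases 2 to 8, in capitals (RefSeq, GRCm38.p6, plus strand, at chr19:22750610-22750631 and chr7:64205831-64205852). The arms share the seed and differ at 1 of 22 bases.
mmu-miR-204-5p: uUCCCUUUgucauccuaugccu
mmu-miR-211-5p: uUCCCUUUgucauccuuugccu

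Libraries held 1620 to 4704 cells and 15079143 to 66528160 UMIs a mouse. ON cone bipolar cells had a median of 15460.5 UMIs and 3914 genes, against 7709 UMIs over all cells, and numbered 168, 125, 134 and 14 across controls S01 to S04, and 21, 161, 51, 105 and 151 across dKO mice S05 to S09. Control mouse S04 and dKO mice S05 and S07 stood apart. Over all cells of a mouse their medians were 4775, 4863 and 5412.5 UMIs against 8118 to 10340 in the other mice. Over ON cone bipolar cells the medians were 16620, 10637 and 14904 UMIs against 14088 to 19448, so only S05 was shallower there. In these 3 mice 10 rod genes took 1.39% to 2.66% of all UMIs against 0.352% to 0.475%. In ON cone bipolar cells of the same 3 mice Xist was at 32.0 to 35.7 CPM (UMIs of a gene per 1000000 UMIs) and the Y-linked genes summed to 420 to 527 CPM, against 1871 to 2348 and 2.21 to 5.00 CPM in the other 6 mice, so these 3 read as male and the others as female. Replicates 6 and 7 carry 1 animal number in the labels but differ in these genes. No cell barcode and no first-round well was shared between mice.

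The genes of the rule describe the cells and were not tested. Trpm1 ran from 10.1 to 98.8 per 10000 UMIs over the cells, with a median of 28.2. Near the bounds, 30 cells had Trpm1 from 10 to under 12 per 10000, 20 cells missed the rule only by a Trpm1 from 8 to under 10, 55 cells had a Prkca, Car8 and Sebox sum from 3 to under 5, and 27 cells on the rod bipolar side had a sum from 5 to under 7. Of the 1565 cells with enough Trpm1 and a low sum, 568 had no Grm6 UMI and 67 had Grm6 but no Isl1. Per mouse, Trpm1 (mouse chromosome 7, GRCm39 chr7:63803583-63922019) stood at 3089, 3089, 3381 and 3379.8 CPM across controls S01 to S04, and 3048, 2693, 2895, 3152 and 3029 CPM across dKO mice S05 to S09. Grm6 (chr11:50741512-50757035) stood at 571, 616, 624 and 415 CPM across controls S01 to S04, and 569.8, 623, 612, 572 and 515 CPM across dKO mice S05 to S09. Isl1 (chr13:116434817-116446235), a LIM-homeodomain factor of ON bipolar cells, stood at 422, 318, 395 and 451 CPM across controls S01 to S04, and 307, 328, 323, 465 and 404 CPM across dKO mice S05 to S09. The groups of mice overlapped for all 3 genes.

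Markers outside the rule were used to check the label. The comparison classes from the same mice were 1175 rod bipolar cells, picked by the same rule with the Prkca, Car8 and Sebox sum at 5 or more, and 1204 OFF cone bipolar cells, picked by at least 1 UMI of Otx2 and of a further bipolar gene, Grik1 at 10 or more per 10000, no Grm6 or Isl1 and a sum under 5. Median depth was 16565 UMIs in rod and 14987 in OFF cone bipolar cells, close to that of ON cone bipolar cells. Secretagogin (Scgn), a calcium-binding protein of cone bipolar cells, averaged 218 ± 21.2 CPM (SD, n = 9 mice) in ON cone, 34.7 ± 16.6 CPM in rod and 289 ± 42.4 CPM in OFF cone bipolar cells. Vstm2b, a rod bipolar marker not used by the rules, averaged 19.5 CPM against 364 CPM in rod bipolar cells. Tacr3, a marker of OFF types, averaged 8.16 CPM against 250.5 CPM. Summed over 10 genes, rod markers took 0.0410% to 0.387% of the UMIs of ON cone bipolar cells of a mouse, highest in S04, S05 and S07. Cone markers took 0.00789% to 0.108%, highest in S05, and Muller glia markers up to 0.0595%, in S06. Microglia markers took at most 0.00187% and pigment epithelium markers at most 0.00943%.

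ON cone bipolar cells made up 4.07, 3.23, 4.14 and 0.516% of all cells across controls S01 to S04, and 1.30, 3.89, 1.08, 3.28 and 4.33% across dKO mice S05 to S09. The groups overlapped, and the 3 low values were those of the rod-rich mice S04, S05 and S07. Means were 2.99 ± 1.70% (SD, n = 4) and 2.78 ± 1.5% (SD, n = 5), and an exact two-sided permutation test of the means gave p = 0.889, where the smallest p that 4 against 5 mice allow is 0.00794. Counted against ON cone plus rod bipolar cells, the share was 44.6, 47.9, 42.7 and 35.9% in the controls and 39.6, 43.5, 38.1, 42.9 and 48.4% in dKO mice. The spread was narrower, and S04, S05 and S07 were again the 3 lowest, with group means of 42.8 ± 5.06% and 42.5 ± 4.00% (exact permutation test, two-sided, p = 0.929). Both differences turned sign under some settings given in the closing section, with a lowest p of 0.294.

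**Figure D1:**
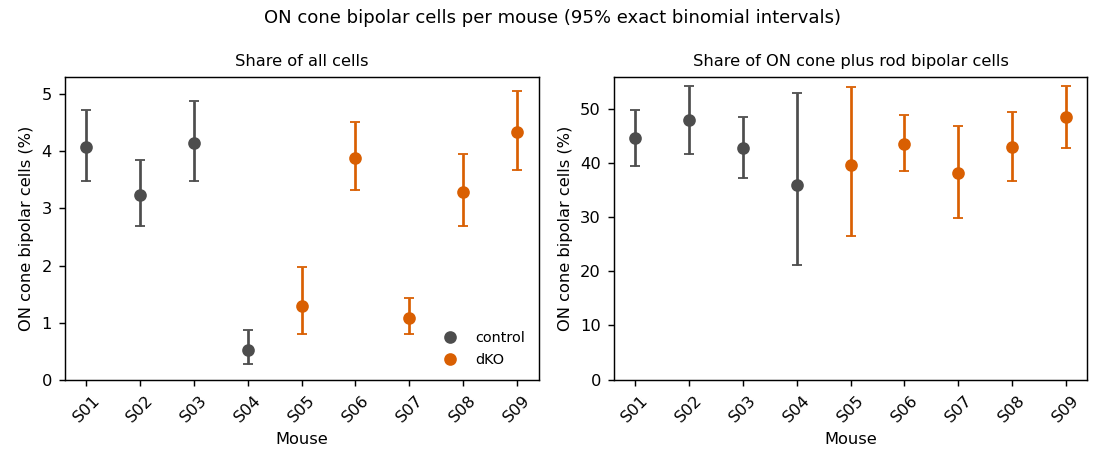
Share of ON cone bipolar cells in each mouse (x axis), in percent of all cells (left) and of ON cone plus rod bipolar cells (right). Points are mice, grey for control and orange for dKO, and bars are 95% exact binomial intervals for counting error only. The low shares of all cells in S04, S05 and S07, 0.516 to 1.30%, are less far from the rest in the right panel, where they lie at 35.9 to 39.6% and the other mice at 42.7 to 48.4%.

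ON cone bipolar cells were then compared with rod and with OFF cone bipolar cells of the same mice, on counts summed per mouse and class, by edgeR's quasi-likelihood test with the mouse as a block and Benjamini-Hochberg adjustment over all genes tested. The genes of the rules were left out. Against rod bipolar cells, 1673 of 10641 genes were higher in ON cone bipolar cells at an adjusted p below 0.05 (15.7%) and 1814 were lower (17.0%). Against OFF cone bipolar cells, 1326 of 10509 were higher (12.6%) and 1429 lower (13.6%). With every cell thinned to 3000 UMIs the calls in both directions fell from 3487 to 1828 and from 2755 to 1593. All 10 rod markers were called lower than in rod bipolar cells (log2 fold changes -1.60 to -0.78). So were 5 of 6 Muller glia, 5 of 5 tested amacrine and 4 of 4 tested pigment epithelium markers. Of 6 cone markers 2 were lower and 1 higher. Against OFF cone bipolar cells 0 of 10 rod markers and 3 of 4 pigment epithelium markers were lower. The part of such RNA in other genes called lower was not tested. Fold changes are log2 values with their standard error, and levels are CPM, which compare 1 gene between classes but not genes of different length.

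The ON cascade separated the cells from OFF cone bipolar cells and less so from rod bipolar cells. Of 14 genes on the list, 13 could be tested against OFF cone bipolar cells and 12 were higher in ON cone bipolar cells, none lower, with a median log2 fold change of 1.33 beside -0.02 over all genes. Against rod bipolar cells all 14 were tested, 4 were higher and 7 lower, with a median of -0.21 beside -0.02. Gnb3 (chr6:124811202-124817238), the beta subunit of the Go trimer, stood at 368, 423, 422 and 232 CPM across controls S01 to S04, and 394, 405, 300.0, 364 and 352 CPM across dKO mice S05 to S09. Every mouse was above its own OFF cone bipolar cells, which held 11.1 to 100.3 CPM, and the log2 fold change was 3.20 ± 0.21 (adjusted p = 1.01e-08). Gpr179 (chr11:97222935-97242903), the receptor that anchors the RGS proteins, stood at 536, 441, 571 and 491 CPM across controls S01 to S04, and 476, 468, 399, 519.8 and 469 CPM across dKO mice S05 to S09. OFF cone bipolar cells held 64.2 to 163 CPM of it, with no overlap, and the log2 fold change was 2.33 ± 0.10 (adjusted p = 1.87e-10). The gamma subunit Gng13 (1.69 ± 0.14), the alpha subunit Gnao1 (1.45 ± 0.07), Gnb5, the partner of the RGS proteins (1.33 ± 0.14), and Pcp2, a modulator of Go (2.36 ± 0.22), were also higher than in OFF cone bipolar cells.

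Within the cascade, the 2 ON classes differed gene by gene. Nyx (chrX:13327355-13359058), which encodes nyctalopin, a protein needed to bring TRPM1 to the dendrite tips, stood at 156, 143, 172 and 165 CPM across controls S01 to S04, and 105, 166, 79.4, 148 and 167 CPM across dKO mice S05 to S09 in ON cone bipolar cells and at 47.6 to 92.3 CPM in rod bipolar cells. It was higher in ON cone bipolar cells of 9 of 9 mice, although the ranges over mice overlapped (log2 fold change 1.04 ± 0.08, adjusted p = 2.17e-07 in edgeR's quasi-likelihood test). Lrit3, whose protein acts at the same site, ran the other way, at 18.7 CPM against 36.1 CPM (-1.10 ± 0.14, adjusted p = 2.81e-05). Its fold change lies within the range of the rod markers given above. The part of RNA from other cells in it was not tested. Of the 2 RGS proteins that close the Go signal, Rgs7 stood at 729 ± 70.8 CPM (SD, n = 9) in ON cone and 3347 ± 896 CPM in rod bipolar cells (-2.16 ± 0.12, adjusted p = 6.72e-09). Rgs11 was higher in ON cone bipolar cells, at 175 CPM against 125 CPM (0.48 ± 0.09, adjusted p = 0.000671), but its adjusted p was 0.277 under the stricter rule (Trpm1 at 20 or more and no UMI of the 3 rod bipolar genes) and 0.474 with cells thinned to 3000 UMIs. Pcp2 was lower than in rod bipolar cells in 9 of 9 mice (-1.80 ± 0.07, adjusted p = 4.51e-10). Tpbg, trophoblast glycoprotein, was at 0 to 1.88 CPM in ON cone bipolar cells against 19.4 to 65.7 CPM in rod bipolar cells (-6.30 ± 0.28, adjusted p = 1.04e-09). Gpr179 was lower than in rod bipolar cells (-0.48 ± 0.09, adjusted p = 0.000833), a call lost when subgroups 7, 10 and 11, described below, were left out (adjusted p = 0.0583).

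**Figure D2:**
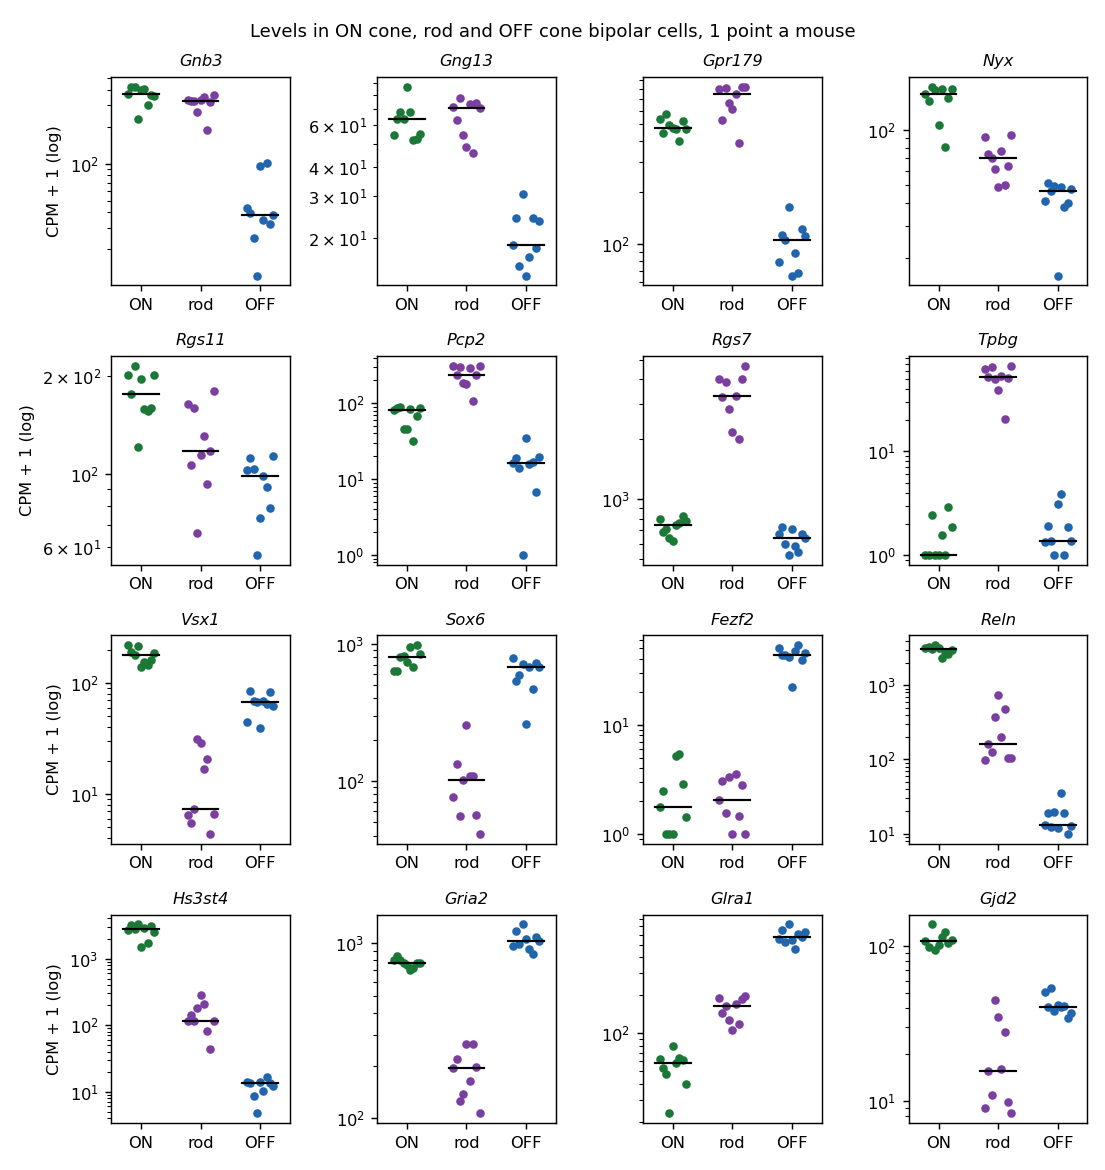
Level of 16 genes in ON cone, rod and OFF cone bipolar cells, as CPM plus 1 on a log axis. Each point is 1 of 9 mice and the black bar is the median. Cascade genes such as Gnb3 and Gpr179 are near the rod bipolar level and above the OFF level, while Tpbg and Rgs7 are high in rod bipolar cells, and Reln and Hs3st4 are high in ON cone bipolar cells.

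Promoters of the cascade were read because its members moved together against OFF cone bipolar cells. The letters TAATCC, the core bound by the homeodomain factors OTX2 and CRX, were sought on both strands from 250 bases before to 50 after the transcription start (RefSeq, GRCm38.p6). Of the 16 cascade genes, Trpm1 and Grm6 included, 13 had an entry, with 20 windows in all, and 5 of these windows held a match, beside 7.06% of all 32851 windows. By gene, 4 of the 13 (Gnb5, Lrit1, Lrit2 and Trpm1) had a match in at least 1 window, beside 8.14% of all 27025 genes with an entry. Lrit2 has overlapping windows that hold the same site, which the count of windows takes once for each. The windows of 3 of these genes are shown on the strand of the gene, with the match in capitals, since they place the motif against the start. Trpm1 has a second start whose window held no match. The match begins at base -34 relative to the start in Trpm1 (chr7:64153585-64153884, plus strand), -50 in Lrit1 (chr14:37054580-37054879, plus strand) and -6 in Gnb5 (chr9:75306038-75306337, plus strand). A match is a description of the letters only.
Trpm1: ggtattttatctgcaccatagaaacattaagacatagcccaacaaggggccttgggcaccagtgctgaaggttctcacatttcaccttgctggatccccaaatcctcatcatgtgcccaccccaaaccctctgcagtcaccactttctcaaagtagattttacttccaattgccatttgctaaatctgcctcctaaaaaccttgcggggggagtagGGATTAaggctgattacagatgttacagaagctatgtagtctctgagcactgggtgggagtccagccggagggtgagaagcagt
Lrit1: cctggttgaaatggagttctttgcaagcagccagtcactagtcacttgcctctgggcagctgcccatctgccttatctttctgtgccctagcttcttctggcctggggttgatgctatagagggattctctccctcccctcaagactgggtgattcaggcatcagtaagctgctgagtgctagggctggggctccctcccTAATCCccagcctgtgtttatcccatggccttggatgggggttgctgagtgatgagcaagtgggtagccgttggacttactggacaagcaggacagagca
Gnb5: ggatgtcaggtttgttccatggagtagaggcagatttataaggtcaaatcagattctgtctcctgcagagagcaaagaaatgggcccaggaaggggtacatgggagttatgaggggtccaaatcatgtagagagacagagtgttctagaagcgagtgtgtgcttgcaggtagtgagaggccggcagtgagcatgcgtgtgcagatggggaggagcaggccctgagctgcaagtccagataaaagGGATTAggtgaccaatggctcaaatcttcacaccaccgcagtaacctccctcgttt

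Transcription factors differed from both neighbours. Against rod bipolar cells, 13 of 18 listed factors were tested, 9 were higher and 3 lower, with a median of 0.67. Against OFF cone bipolar cells, 15 were tested, 5 were higher and 6 lower, with a median of -0.06. Of all genes, 15.7% were higher and 17.0% lower than in rod bipolar cells, and 12.6% and 13.6% than in OFF cone bipolar cells. Vsx1 (chr2:150522622-150531280), a homeodomain factor of cone bipolar types, stood at 219.6, 188, 179 and 214 CPM across controls S01 to S04, and 139, 153, 143, 159.7 and 185 CPM across dKO mice S05 to S09, with 3.33 to 30.2 CPM in rod and 38.5 to 84.6 CPM in OFF cone bipolar cells. No mouse's ON cone value fell within either range, and the log2 fold changes were 4.15 ± 0.31 (adjusted p = 1.3e-07) and 1.46 ± 0.13 (adjusted p = 2.14e-07). Sox6, an SRY-box factor, averaged 782 ± 128 CPM against 103 ± 64.1 CPM in rod bipolar cells (3.12 ± 0.25, adjusted p = 2.26e-07). Nfia, a nuclear factor I protein, was higher than in rod (2.30 ± 0.13) and than in OFF cone bipolar cells (1.04 ± 0.10), with no overlap between classes. Among factors that mark OFF types, Fezf2 and Bhlhe22 were low and Lhx3 was not. Fezf2 averaged 1.46 CPM against 42.1 CPM in OFF cone bipolar cells (-4.64 ± 0.30), and Bhlhe22 0.822 CPM against 26.3 CPM (-4.47 ± 0.28). Bhlhe23, known from rod bipolar development, averaged 24.9 CPM, 41.2 CPM and 2.92 CPM in ON cone, rod and OFF cone bipolar cells, and was higher than in OFF cone bipolar cells (2.78 ± 0.23). Prdm8, also needed by rod bipolar cells, was lower than there (-1.31 ± 0.14, adjusted p = 2.9e-06). Zfhx4 was above rod bipolar cells (1.57 ± 0.11), and its mean level was 590.3 CPM against 1679 CPM in OFF cone bipolar cells. Lhx3 averaged 35.4 CPM against 6.63 CPM in rod bipolar cells (2.98 ± 0.28), and Lhx4 was lower than in OFF cone bipolar cells (-1.85 ± 0.11). With the cells of all mice summed, Lhx3 stood at 35.1 CPM in ON cone and 46.3 CPM in OFF cone bipolar cells. It was found in 29.7% and 31.6% of the cells.

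The genes with the highest fold over the other classes, among those that averaged 50 CPM or more and went the same way in every mouse, include the sulfotransferase Hs3st4, first in both comparisons, and Reln, which came second against OFF cone bipolar cells and lower on the list against rod bipolar cells. Hs3st4, which modifies heparan sulfate chains (chr7:123582092-123998212), stood at 2654, 3144, 2737 and 3290.5 CPM across controls S01 to S04, and 1469, 2874, 1719, 3082 and 2546 CPM across dKO mice S05 to S09. It was at 42.9 to 279 CPM in rod and 3.72 to 15.8 CPM in OFF cone bipolar cells (4.34 ± 0.28 and 7.92 ± 0.15, adjusted p = 2.58e-08 and 3.88e-14 in edgeR's quasi-likelihood test). Reln (chr5:22089452-22549700), the secreted glycoprotein reelin, stood at 3183, 3316, 3057 and 3496 CPM across controls S01 to S04, and 3145, 2348, 2831, 2611 and 2962 CPM across dKO mice S05 to S09. It was at 97.0 to 739 CPM in rod and 8.76 to 34.5 CPM in OFF cone bipolar cells (3.91 ± 0.31 and 7.56 ± 0.21). Every mouse's ON cone value for both genes exceeded all rod and OFF values. Among the 12 named against rod bipolar cells were also Smoc2 (4.22), Fn1, which encodes fibronectin (4.15), Il1rapl2 (4.09), the cadherin Cdh9 (4.06), the semaphorin Sema3d (3.93), Fam20a (3.76), Sec1 (3.79), the NMDA receptor subunit Grin3a (3.75) and the unnamed transcript Gm48606 (4.07). Against OFF cone bipolar cells the same rule also named Igfn1 (7.25), Cnmd (7.07), the contactin Cntn5 (6.31), the transcription factor St18 (6.01) and Adamtsl3 (5.98).

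Lower than in rod bipolar cells were Cep112, a centrosomal protein, at 7.50 to 23.6 CPM against 861 to 2026 CPM (-6.95 ± 0.18, adjusted p = 7.41e-12), and the postsynaptic adhesion protein Lrrtm4 at 31.3 to 109 CPM against 2590.0 to 8189.7 CPM (-6.17 ± 0.20). Others on that side were the phosphatase Ptprr (-6.34), the sorting receptor Sorcs3 (-6.01), Wscd2 (-6.25), Tmem196 (-6.74) and the potassium channel Kcnt2 (-6.07). C330024D21Rik (-7.07), 9330154J02Rik (-6.03), 5730419F03Rik (-5.82) and 2410018L13Rik (-5.77) have no function assigned here. Where mice had no UMI in ON cone bipolar cells, as for Tmem196 and Kcnt2, the fitted value depends on the prior count. Lower than in OFF cone bipolar cells were the receptor kinase Erbb4 (-6.06 ± 0.28), neurexophilin 1 (Nxph1, -5.87 ± 0.45), the kainate receptor partner Neto1 (-5.75 ± 0.40), the phosphodiesterase Pde1a (-5.55 ± 0.32) and Galntl6 (-5.31 ± 0.27).

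Genes of the ribbon synapse, which sustains glutamate release, differed in both directions. Of 21 listed genes 20 were tested. Against rod bipolar cells 8 were higher and 4 lower (median 0.18), and against OFF cone bipolar cells 6 were higher and 5 lower (median 0.10), shares to be read against 15.7% and 17.0%, and 12.6% and 13.6%, of all genes. Rims1, an active zone scaffold, averaged 366 ± 84.8 CPM against 143 ± 41.5 CPM in rod bipolar cells (1.36 ± 0.17, adjusted p = 2.26e-05). Cacna1f, the calcium channel of the ribbon, was higher than in rod bipolar cells by 0.44 ± 0.08, while the priming factor Unc13b (-0.86 ± 0.09) and the channel subunit Cacnb2 (-0.65 ± 0.08) were lower. Against OFF cone bipolar cells, the complexin Cplx4 was higher (1.63 ± 0.19, adjusted p = 6.93e-06) and the calcium sensor synaptotagmin 2 (Syt2) was lower, at 8.78 CPM against 91.3 CPM (-3.06 ± 0.19).

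Receptors for the inhibitory transmitters of amacrine cells differed from both classes. Of 14 listed genes, 7 were higher and 4 lower than in rod bipolar cells, and 3 of 13 higher and 7 lower than in OFF cone bipolar cells, where 15.7% and 17.0%, and 12.6% and 13.6%, of all genes were called. Gabrr2, a subunit of the slow GABA-C receptor, stood at 1188, 1093, 957, 1121, 1132, 854, 762.1, 919 and 1138 CPM in mice S01 to S09 in ON cone bipolar cells. It was higher than in rod (1.10 ± 0.07, adjusted p = 2.37e-08) and in OFF cone bipolar cells (1.52 ± 0.06, adjusted p = 7.11e-11). The GABA-A subunit Gabrb2 (2.15 ± 0.19) was higher than in rod bipolar cells. Gabrr3 was lower than in OFF cone bipolar cells (-1.33 ± 0.12). Glra1, the glycine receptor subunit, stood at 62.0, 52.5, 46.9, 22.3, 78.7, 57.7, 62.9, 60.1 and 38.9 CPM in mice S01 to S09, below the 106 to 195 CPM of rod and the 464 to 724 CPM of OFF cone bipolar cells, with no overlap (-1.57 ± 0.15 and -3.39 ± 0.12, adjusted p = 1.52e-06 and 1.84e-11 in edgeR's quasi-likelihood test).

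Glutamate receptors other than mGluR6 were mostly lower than in the other classes. Of 12 tested against rod bipolar cells 4 were higher and 7 lower (median -0.72), and of 11 tested against OFF cone bipolar cells 2 were higher and 7 lower (median -0.40). The shares over all genes were 15.7% higher and 17.0% lower against rod, and 12.6% and 13.6% against OFF cone bipolar cells. Gria2, the AMPA subunit that bars calcium, stood at 799, 842, 799, 763, 746, 702, 719, 769 and 769.8 CPM in mice S01 to S09, against 106 to 266 CPM in rod bipolar cells (2.11 ± 0.13, adjusted p = 2.58e-08). The presynaptic receptor Grm7 was higher (1.55 ± 0.20) and Grm8 lower (-1.36 ± 0.15) than in rod bipolar cells. The NMDA subunit Grin2b was lower than in both, at 38.7 CPM against 200.2 CPM and 319 CPM (-2.41 ± 0.33 and -3.07 ± 0.22), and Gria4 was lower than in OFF cone bipolar cells (-1.80 ± 0.11). Grik1 chose the OFF cone bipolar cells and was not tested against them.

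Ion channels varied in both directions, with 5 of 17 tested higher and 5 lower than in rod bipolar cells, and 4 of 18 higher and 9 lower than in OFF cone bipolar cells. Beside these stand 15.7% and 17.0% of all genes against rod, and 12.6% and 13.6% against OFF cone bipolar cells. Kcng4, a modulatory potassium channel subunit that marks ON cone types, averaged 33.5 ± 11 CPM against 2.65 ± 1.61 CPM in rod bipolar cells (3.92 ± 0.24, adjusted p = 2.37e-08). Kcnh5, a channel of the ether-a-go-go family, ran the other way at 70.0 ± 37.7 CPM against 1149 ± 312 CPM (-4.00 ± 0.17, adjusted p = 9.13e-10). Cacna1h, a T-type calcium channel, was higher than in rod bipolar cells (2.58 ± 0.18), and Cacna1g lower than in OFF cone bipolar cells (-2.54 ± 0.15). Of the pacemaker channels, Hcn3 (-2.65 ± 0.13) and Hcn4 (-2.20 ± 0.17) were lower than in OFF cone bipolar cells. Hcn4 was above rod bipolar cells (1.63 ± 0.24, adjusted p = 8e-05), a call lost under the stricter rule (adjusted p = 0.0733).

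Gjd2, which encodes connexin 36, the gap junction protein that couples ON cone bipolar cells to AII amacrine cells, stood at 107, 97.5, 138 and 93.8 CPM across controls S01 to S04, and 101, 114, 122, 104 and 108 CPM across dKO mice S05 to S09. Rod bipolar cells held 7.30 to 44.2 CPM and OFF cone bipolar cells 33.3 to 53.2 CPM, with no overlap (2.96 ± 0.23 and 1.44 ± 0.08, adjusted p = 2.24e-07 and 1.2e-09 in edgeR's quasi-likelihood test). The other 2 connexins listed were low, with Gjc1 at 2.95 CPM and Gja10 at 0.0617 CPM. The next counts are to be read against 15.7% of all genes higher and 17.0% lower than in rod, and 12.6% and 13.6% than in OFF cone bipolar cells. Among calcium-binding proteins, 2 of 4 tested were higher and 2 lower than in rod bipolar cells, with Scgn (2.83 ± 0.19) and Cabp2 (2.42 ± 0.26) on the high side. Of the 8 clock and glucocorticoid genes tested, 2 were higher and 3 lower than in rod bipolar cells (median -0.05). Of 9 immediate early and stress genes, 5 were lower than in OFF cone bipolar cells and none higher (median -0.55). Of 9 tested genes that the study labelled in other cells of these samples, 6 were higher than in rod bipolar cells and none lower, among them the growth factor Gdf11 (2.64 ± 0.28) and Inpp4b, a lipid phosphatase (1.42 ± 0.15). That list was chosen by the study on these samples, so its count is not independent evidence. Of 15 tested genes that cell atlases use to tell ON cone types apart, 9 were higher and 2 lower than in rod bipolar cells, and 9 higher and 4 lower than in OFF cone bipolar cells.

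The class was not uniform. Leiden clustering of the 930 cells gave 11 subgroups of 172 to 10 cells, which are described by number and leading genes, without tests, because the same cells defined them. They fell into pairs. Subgroups 1 (172 cells) and 4 (128 cells) had the highest Trpm1, at 5185 and 4616 CPM against 1532 to 2997 in the other subgroups. They shared Vsx1 (301 and 282 CPM), Scgn (528 and 513), chondromodulin (Cnmd, 362 and 262) and the neuropeptide gene Cck (60.0 and 75.2). Subgroups 3 (130 cells) and 5 (94 cells) shared Vsx1 (329 and 249 CPM) and Igfn1 (1812 and 1475), and had the highest Hcn4 (60.5 and 51.8). They differed in leading genes, with the adhesion protein Sdk1 at 2540.0 CPM in subgroup 3 against 299 in all other cells, and Sdk2 at 1271 against 212 in subgroup 5, which also led in the substance P receptor Tacr1 (425 against 59.7).

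Subgroups 2 (157 cells) and 6 (86 cells) had the highest Sox6, at 3217 and 3726 CPM against 9.68 to 12.2 in subgroups 1, 3, 4, 5, 8 and 9 and 488 to 500.1 in the others. They had no more than 1.68 CPM of Vsx1, and the highest Nyx (333 and 393), Cabp5 (669 and 486) and serotonin receptor Htr3a (25.6 and 42.1). Subgroup 8 (45 cells) was led by the copine Cpne9 (1428 CPM against 6.65), the teneurin Tenm1 (1917 against 21.3) and the neurotrophin receptor Ntrk3 (2111 against 42.0), and had the least Gabrr1 (14.2 CPM). Subgroup 9 (39 cells) was led by Gm13986 (849.7 against 9.53) and Csmd3 (8899.8 against 339.8), with Spock3 at 1139 CPM and Glra1 at 348 CPM, against 8.69 to 54.6 in subgroups 1 to 6 and 8. Cnmd, Vsx1 and Scgn were at or near 0 in subgroups 8 and 9, where Serpini1 was highest (510.3 and 447). Of the genes of the rule, Grm6 was highest in subgroups 1, 4 and 9, at 915, 814 and 836 CPM.

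**Figure D3:**
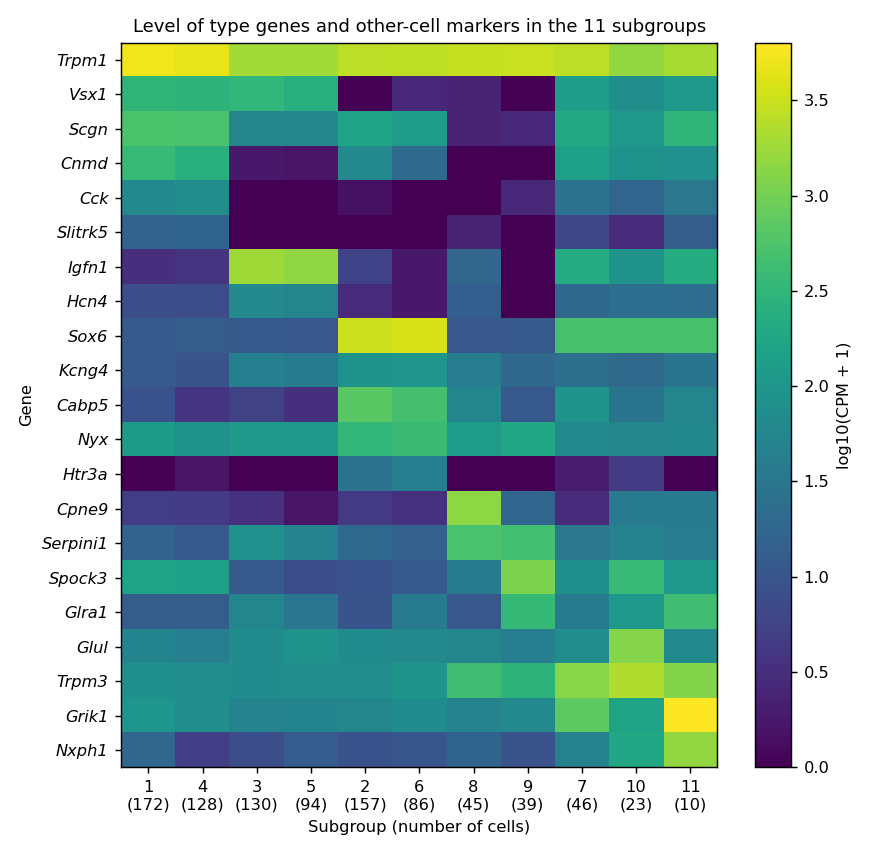
Level of 21 genes (rows) in the 11 subgroups (columns, number of cells in parentheses), as log10 of CPM plus 1. The pairs 1 and 4, 3 and 5, and 2 and 6 share their genes, subgroups 8 and 9 have their own, and subgroups 10 and 11 carry Glul and Grik1 of other cell classes.

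Subgroups 7, 10 and 11 held genes known from other cell classes. Subgroup 7 (46 cells) held the rod genes Gnat1 (654 CPM against 48.1 in all other cells) and Pdc (453 against 32.5). Subgroup 10 (23 cells) had a median of 34108 UMIs, more than any of subgroups 1 to 9, and held 1312 CPM of the Muller glia gene Glul against 41.1 to 88.3 elsewhere, and 99.5 CPM of the amacrine gene Gad1. Subgroup 11 (10 cells) had 38227.5 UMIs and held 6335 CPM of Grik1 and 1540.4 of Nxph1, both OFF cone bipolar genes. No doublet caller was run, and the dKO comparison and its interaction with class, given below, were also run without these subgroups.

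By mouse, 8 mice with at least 20 ON cone bipolar cells entered a test of subgroup shares, 3 control and 5 dKO. None of 11 subgroups differed by an exact two-sided permutation test, with the lowest p = 0.161 (subgroup 5, adjusted p = 0.688 after Benjamini-Hochberg adjustment), where 3 against 5 mice allow no p under 0.0179. Adjusted over 11 subgroups, that smallest p becomes 0.196 for a subgroup on its own, so no single subgroup could have been called. Subgroup 5 made up 11.3, 14.4, 9.70 and 7.14% across controls S01 to S04, and 0, 11.8, 3.92, 6.67 and 9.93% across dKO mice S05 to S09. Subgroup 7 made up 2.98, 4.80, 1.49 and 21.4% across controls S01 to S04, and 19.0, 8.07, 21.6, 0.952 and 0.662% across dKO mice S05 to S09, and was highest in the 3 rod-rich mice S04, S05 and S07.

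Subgroups 1 and 4 varied against each other. Subgroup 1 made up 12.5, 16, 28.4 and 28.6% across controls S01 to S04, and 14.3, 24.2, 33.3, 24.8 and 2.65% across dKO mice S05 to S09. Subgroup 4 made up 23.2, 15.2, 5.22 and 7.14% across controls S01 to S04, and 19.0, 1.86, 5.88, 3.81 and 31.8% across dKO mice S05 to S09. Mouse S09 had the lowest share of subgroup 1 and the highest of subgroup 4, and S06 the lowest of subgroup 4, so both extremes lay among dKO mice. Joined, they made up 35.7, 31.2, 33.6 and 35.7% across controls S01 to S04, and 33.3, 26.1, 39.2, 28.6 and 34.4% across dKO mice S05 to S09, a narrower span, with means of 33.5 ± 2.26% (SD, n = 3) and 32.3 ± 5.15% (SD, n = 5; exact permutation test, two-sided, p = 0.732). The joining was chosen after the shares were seen. In the summed cells of each mouse, 2 genes picked after their values were seen were highest in the 2 mice with the most subgroup 4. Ptprn, a protein of dense core vesicles, stood at 432, 225, 124, 147, 322, 81.0, 90.4, 97.7 and 555 CPM in mice S01 to S09, highest in S09 and S01. Pde10a, a phosphodiesterase, stood at 2563, 1635, 1156, 1683, 2253, 645, 1525, 788 and 3411 CPM in mice S01 to S09, also highest in S09 and S01. At resolutions of 0.5 and 1.5 the clustering gave 6 and 12 subgroups, again with none called. With the same mice no single subgroup could have been called at these resolutions either.

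**Figure D4:**
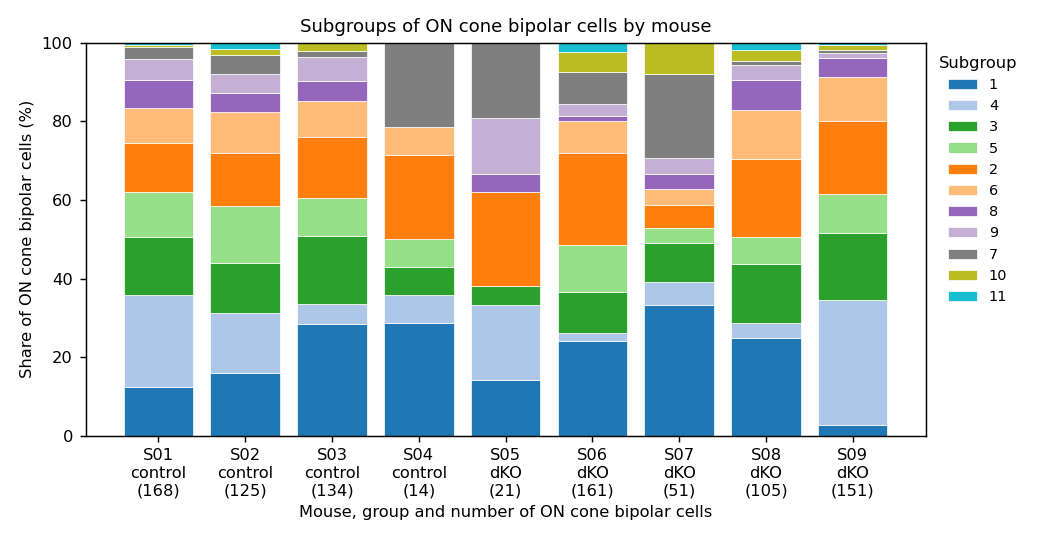
Share of the 11 subgroups among the ON cone bipolar cells of each mouse, stacked to 100%, with the group and the number of cells under each bar. Subgroups 1 and 4, dark and light blue, trade places between mice while their joint share stays between 26.1 and 39.2%, and subgroup 7 (grey) is largest in S04, S05 and S07.

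The comparison of dKO with control mice asked whether RNA levels in these neurons differ between the groups. By the labels, tamoxifen and the deletion cannot be told apart in it. Of 10402 genes tested on counts summed per mouse, none was called in ON cone bipolar cells (0% at an adjusted p below 0.05 in edgeR's quasi-likelihood test, Benjamini-Hochberg adjusted, lowest adjusted p = 0.886). At an unadjusted p below 0.05 there were 379 genes (3.64%), 254 higher and 125 lower in dKO mice. DESeq2 and limma-voom also called none, with 247 and 460 genes at an unadjusted p below 0.05. Without subgroups 7, 10 and 11 none was called and 224 genes had such a p. With no filter on low counts 217 of 25560 genes were called, 199 of them higher in dKO mice. They included genes that pass the filter and are given below. Among these were Grik1 (2.05), Nfib (2.32) and Trpm3 (1.43), with adjusted p of 6.68e-34, 1.39e-28 and 1.93e-17 in edgeR's quasi-likelihood test. Mpzl1 and Ablim1 were not called in any setting. Why the filter moved these calls was not tested. Control mouse S04 and dKO mouse S05 entered with 14 and 21 cells, and their counts carry the most sampling error. On simulated counts the same test recovered 40.8% of 2-fold and 93.5% of 4-fold changes, so many 2-fold changes could be missed.

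The genes of the ON cascade and the ribbon gave small values. Of 13 tested genes of the ON cascade none had an unadjusted p below 0.05, beside 3.64% of all genes, and their log2 fold changes ran from -0.28 to 0.32 with a median of -0.07 beside 0.00394 over all genes. None of 20 ribbon genes had such a p (median -0.04), nor any of 8 clock and glucocorticoid genes (median -0.03). Such a p was found for 1 of 13 inhibitory receptors, 2 of 14 transcription factors, 2 of 17 ion channels, 2 of 9 immediate early genes, 5 of 12 glutamate receptors, 3 of 15 genes that tell ON cone types apart (Igfn1, Spock3 and Vsx1) and 2 of 10 genes the study labelled in other cells. Igfn1 and Spock3 had log2 fold changes of -0.58 ± 0.26 and 0.46 ± 0.18, and -0.38 and 0.38 without subgroups 7, 10 and 11 (unadjusted p = 0.181 and 0.0934). Vsx1 had a log2 fold change of -0.36 ± 0.13 (unadjusted p = 0.0139, adjusted p = 1.0) from the values per mouse given above, where the groups overlapped, and it was -0.25 without subgroups 7, 10 and 11 (unadjusted p = 0.0776) and turned to 0.28 under the stricter rule. The growth factor Gdf11, a gene the study picked in other cells of these samples, stood at 43.0, 31.0, 45.5 and 31.3 CPM across controls S01 to S04, and 15, 29.1, 17.6, 25.7 and 34.0 CPM across dKO mice S05 to S09 (log2 fold change -0.58 ± 0.23, adjusted p = 1.0, and -0.45 with an unadjusted p of 0.0341 without the 3 subgroups). Jun, an immediate early factor, averaged 19.5 CPM in control and 42.2 CPM in dKO mice (1.12 ± 0.37, adjusted p = 1.0), and its fold change was 0.50 without the 3 subgroups (unadjusted p = 0.0478).

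Among glutamate receptors other than mGluR6, 5 of 12 had an unadjusted p below 0.05 beside 3.64% of all genes, with a median log2 fold change of 0.32, and none was called. All 5 had higher values in dKO mice. They were the AMPA subunits Gria3 (1.55 ± 0.56, unadjusted p = 0.0153) and Gria4 (0.61 ± 0.19, unadjusted p = 0.00626), the kainate subunits Grik1, given with Trpm3 below, and Grik2 (1.53 ± 0.57, unadjusted p = 0.0176), and the NMDA subunit Grin2b (1.03 ± 0.38, unadjusted p = 0.0171). Gria3 stood at 8.37, 6.50, 9.48 and 0 CPM across controls S01 to S04, and 0, 51.6, 12.1, 18.2 and 12.4 CPM across dKO mice S05 to S09. Grik2 stood at 16, 8.5, 13.7 and 17.9 CPM across controls S01 to S04, and 7.50, 47.5, 103, 15.7 and 16.4 CPM across dKO mice S05 to S09. The groups overlapped for both genes, with Gria3 highest in S06 and Grik2 highest in S07 and S06. Without subgroups 7, 10 and 11 the values were 0.20 for Gria3, 0.35 for Gria4, 0.03 for Grik2 and 0.68 for Grin2b, with unadjusted p of 0.627, 0.151, 0.933 and 0.0288. The count was then 2 of 12, Grin2b and Grm8, with a median of 0.04, beside 224 of 9683 genes.

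The 10 genes with the lowest p are given as values, none of them called. Of these 10 genes, 9 were higher in dKO mice. Without subgroups 7, 10 and 11, 9 could be tested and 6 kept an unadjusted p below 0.05, namely Mir99ahg, Cyld, Mpzl1, Ablim1, Entrep2 and Sgcd. The groups of mice did not overlap in CPM for 6 of the 10, Mir99ahg, Cyld, Mpzl1, Ablim1, Entrep2 and Pitpnc1. Such a split was found for 1.32% of all genes tested. The 10 genes were picked by their p in this same comparison, which favours such splits. Counts over these 10 genes are therefore not independent evidence. Mir99ahg, the host transcript of a microRNA cluster, stood at 304, 319.9, 324 and 254 CPM across controls S01 to S04, and 479.8, 410.4, 545, 446 and 384 CPM across dKO mice S05 to S09, lower in every control than in any dKO mouse (0.53 ± 0.12, adjusted p = 0.886). Cyld, a deubiquitinase, stood at 182, 192, 178 and 174 CPM across controls S01 to S04, and 82.5, 101, 144, 118 and 139.6 CPM across dKO mice S05 to S09, the only 1 of the 10 that was lower in dKO mice (-0.64 ± 0.15). Mpzl1, a surface glycoprotein, stood at 9.13, 9.0, 11.4 and 4.46 CPM across controls S01 to S04, and 22.5, 23.3, 24.3, 19.4 and 13.7 CPM across dKO mice S05 to S09 (1.05 ± 0.26). Ablim1, an actin-binding protein, stood at 124, 135, 139 and 121 CPM across controls S01 to S04, and 221, 212, 195, 224 and 141 CPM across dKO mice S05 to S09, with S09 beside the controls (0.55 ± 0.14). Without subgroups 7, 10 and 11 these 4 fold changes were 0.43, -0.57, 1.06 and 0.48, with unadjusted p of 0.00558, 0.00212, 0.000944 and 0.0123. Under the stricter rule, which kept 200 cells in 6 mice, Mir99ahg turned to -0.17. Entrep2 stood at 17.1, 26.5, 38.4 and 26.8 CPM across controls S01 to S04, and 48.7, 59.9, 77.2, 60.1 and 50.4 CPM across dKO mice S05 to S09 (1.11 ± 0.23, unadjusted p = 0.00868 without the 3 subgroups), and Sgcd, a sarcoglycan, averaged 8.86 CPM in control and 39.09 CPM in dKO mice (1.98 ± 0.47).

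The other 4 genes had an unadjusted p above 0.05, or no test, without the 3 subgroups. Nfib, a nuclear factor I gene, stood at 24.0, 24.5, 30.3 and 31.3 CPM across controls S01 to S04, and 11.2, 206, 265, 106 and 59.7 CPM across dKO mice S05 to S09 (2.33 ± 0.51), and OFF cone bipolar cells held 697 to 1303 CPM. Pitpnc1 stood at 86.8, 87.5, 92.9 and 71.4 CPM across controls S01 to S04, and 112, 152, 219, 129 and 124 CPM across dKO mice S05 to S09 (0.75 ± 0.18), with no overlap. Rbfox1, a splicing factor (1.26 ± 0.29), and the adhesion gene Lrrtm3 (2.20 ± 0.51) completed the 10. Without subgroups 7, 10 and 11 the log2 fold changes of Nfib, Pitpnc1 and Rbfox1 were 0.28, 0.27 and 0.62, with unadjusted p of 0.250, 0.269 and 0.0760, and Lrrtm3 fell under the filter on low counts. Under the stricter rule Nfib turned to -0.10, Rbfox1 to -0.15 and Trpm3, given next, to -0.25. Of the 10 genes 5 were lower in ON cone than in OFF cone bipolar cells, beside 13.6% of all genes in that comparison. Grik1, which defines the OFF cone class, stood at 75.0, 168, 64.9 and 44.6 CPM across controls S01 to S04, and 45, 596, 882, 311 and 135 CPM across dKO mice S05 to S09, high in S06, S07 and S08 (log2 fold change 2.05 ± 0.60, unadjusted p = 0.00448, adjusted p = 1.0). Its fold change was 0.12 without subgroups 7, 10 and 11 (unadjusted p = 0.544) and 0.01 under the stricter rule. Trpm3, the host gene of Mir204, stood at 126, 222, 148 and 40.2 CPM across controls S01 to S04, and 82.5, 912, 485, 346 and 129 CPM across dKO mice S05 to S09, high in the same 3 mice (1.42 ± 0.53, adjusted p = 1.0), and 0.25 without the 3 subgroups (unadjusted p = 0.254). By subgroup, Trpm3 was at 1355, 2226 and 1255 CPM in 7, 10 and 11 against 68.9 to 425 CPM elsewhere. The other 4 OFF cone markers, of which Lhx3 gave the most UMIs, together took 0.00402 to 0.00518% of UMIs in control and 0.00300 to 0.00618% in dKO mice. The 6 Muller glia markers took 0.00938 to 0.0263% in control and 0.0111 to 0.0595% in dKO mice, 3 of them with an unadjusted p below 0.05 (median log2 fold change 0.92), and the 6 amacrine markers 0.00134 to 0.00303% and 0.00150 to 0.0123%. The part of such RNA in the values of these genes was not tested beyond the removal of the 3 subgroups.

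**Figure D5:**
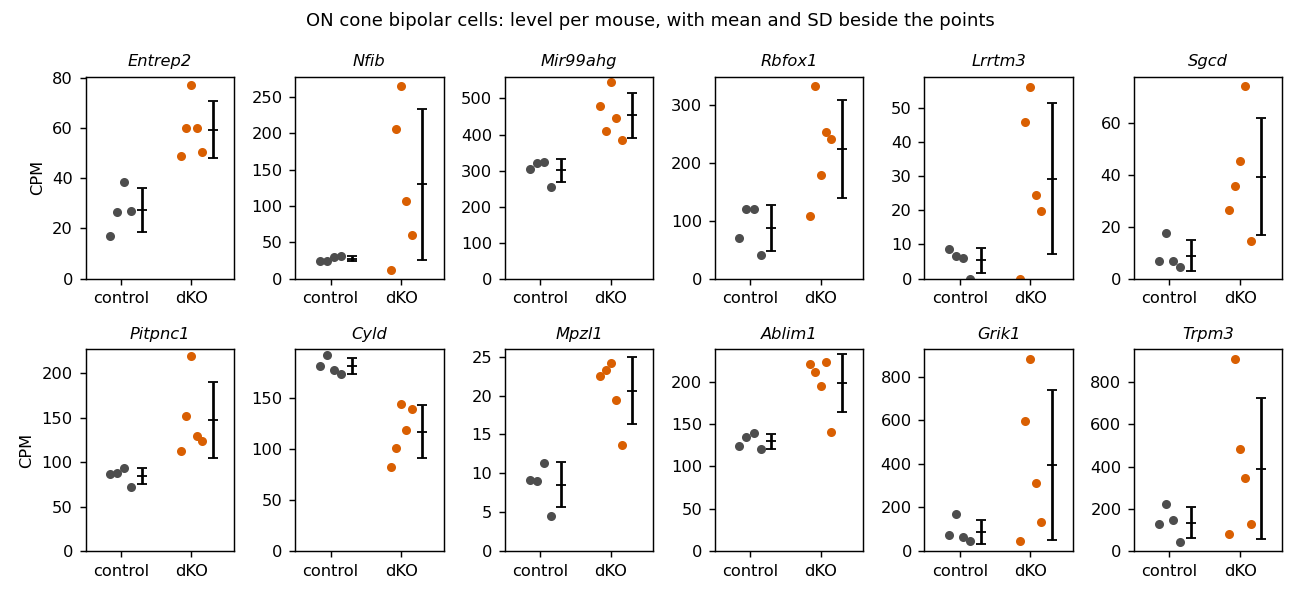
Level in ON cone bipolar cells per mouse, in CPM, of the 10 genes with the lowest p and of Grik1 and Trpm3, with the control mice in grey and dKO mice in orange. Bars beside the points are the mean and SD (n = 4 control and 5 dKO). No gene passed the adjusted threshold, and Nfib, Grik1 and Trpm3 are highest in S06 and S07.

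Whether a dKO change differed between ON cone and rod bipolar cells was tested as an interaction. None of 12009 genes was called (0%, edgeR's quasi-likelihood test, Benjamini-Hochberg adjusted, lowest adjusted p = 0.295), and 490 had an unadjusted p below 0.05 (4.08%). Without subgroups 7, 10 and 11 none of 11853 was called and 250 had such a p. In rod bipolar cells on their own, 0 of 11722 genes were called and 127 had an unadjusted p below 0.05. Kcnh7, a potassium channel gene, had the second lowest p of the interaction, with 11, 16, 10.9 and 0 CPM across controls S01 to S04, and 3.75, 53.0, 64.0, 23.2 and 26.5 CPM across dKO mice S05 to S09 in ON cone bipolar cells and a difference between the log2 changes of 2.13 ± 0.36 (adjusted p = 0.295). It was called when dKO mouse S08 was left out (difference 2.41, adjusted p = 0.0313), and the difference was 0.68 without the 3 subgroups (unadjusted p = 0.0794). OFF cone bipolar cells held 549.9 CPM of it. The lowest p belonged to Pcsk6, a protease gene at 0 to 41.9 CPM in ON cone bipolar cells (3.64 ± 0.59, adjusted p = 0.295, and 1.62 with an unadjusted p of 0.0474 without the 3 subgroups). The other 8 named genes, Htra1, Nos1ap, Cacng2, Tspan14, L3mbtl4, Ptprf, Kcnh1 and Ddo, averaged 1.63 CPM to 21.0 CPM in ON cone bipolar cells, with differences of 1.68 to 4.57 on the log2 scale. Without the 3 subgroups Ddo was not tested, and Cacng2 had a difference of 1.30 (unadjusted p = 0.0200 in the same test). The rest then ran from 0.18 (Ptprf) to 1.04 (Nos1ap), with unadjusted p of 0.0673 to 0.737.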

How the data were processed

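Retinas of 9 mice were dissociated with papain and profiled in 1 combinatorial-barcoding single-cell RNA-seq run with 8 sublibraries. The authors deposited a matrix of raw UMI counts per gene and cell, aligned to GRCm39, and a table of cells that gives mouse and group. Per the labels' processing notes R 4.2.2 and Seurat 4.3.0 were used. Cells with few genes had been removed, and no doublet step is given in the sources used here. The total counts per mouse ran from 15079143 to 66528160 UMIs, and ON cone bipolar cells held 223981 to 3603673.

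Cells were chosen by the rule given above, and the members and gene lists were chosen with earlier results of these data known. Counts were summed per mouse and class (mice with 10 or more cells) and tested with edgeR 4.0.16 (R 4.3.3, glmQLFit and glmQLFTest, TMM, filterByExpr), with Benjamini-Hochberg adjustment at 0.05. Class comparisons blocked on the mouse. Shares were tested by exact two-sided permutation of means (SciPy 1.17.1), with exact binomial intervals that cover counting error only. Subgroups came from 2000 variable genes, 20 principal components, 15 neighbours and Leiden clustering at resolution 1.0 (scanpy 1.11.5). P-values of the comparisons of dKO with control mice measure the spread between mice. Those of the class comparisons and the interaction, blocked on the mouse, measure the spread of the class difference over mice. The scripts were tested on simulated counts in which 100 genes were changed 2-fold and 100 were changed 4-fold. In the dKO comparison 40.8% and 93.5% of those tested were recovered, and 11 unchanged genes were called. In the comparison with rod bipolar cells 79.6% and 97.8% were recovered, and 11 unchanged genes were called. Strand use in the counting is not given in the sources used here, so overlapping genes may share reads.

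Genes named were all members of the fixed lists on which a result turns, the 10 genes of lowest p where fewer than 10 were called, the 12 genes a direction with the largest fold among called genes at 50 CPM or more with the same direction in every mouse, and leading genes of subgroups. Alternatives were DESeq2 1.42.0, limma-voom (limma 3.58.1), no TMM, no filter on low counts, other bounds of the rule, cells thinned to 3000 UMIs, the 5% of cells with the most UMIs removed, covariates for Xist and rod share, replicates 6 and 7 summed, and each mouse left out. The removal of subgroups 7, 10 and 11 and the joining of subgroups 1 and 4 were chosen after seeing the data. Some listed genes are not reported here.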

Additional observations from a re-analysis of the deposited data

Results flagged for a closer look

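In dKO mouse S05, 14.3% of ON cone bipolar cells fell in subgroup 9, which was far above the next highest dKO mouse at 3.92% by Dixon's test of a sample apart from its group. S05 had 21 ON cone bipolar cells, so this share is 3 cells. Chance alone marks about 1 in 20 groups of this kind, and 1 of 65 groups tested was marked.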

How the results depend on the processing

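No paired analysis was possible because the control and dKO mice share no replicate numbers. The difference in share of all cells (dKO minus control, percentage points) was -0.21 and turned to 0.0709 with cells thinned to 3000 UMIs, and ran from -1.04 to 0.21 with 1 mouse left out. The difference in share of ON cone plus rod bipolar cells was -0.27, turned to 6.02 when thinned, and ran from -2.55 to 1.45 with 1 mouse left out. The dKO comparison, with 0 genes called, gave 217 with no filter on low counts (199 of them higher, 25560 tested), 1 with the Xist level as covariate (Rbfox1) and 1 under the stricter rule (Gm48606). The comparisons with rod and OFF cone bipolar cells called 3487 and 2755 genes, 1828 and 1593 after thinning, and 2925 to 3584 and 2343 to 2848 with 1 mouse left out. The interaction, with 0 called, gave 181 with no filter and 1 with replicates 6 and 7 summed (Ebf3), and ran from 0 to 1 with 1 mouse left out. Under the stricter rule the dKO log2 fold changes of Vsx1, Trpm3, Spock3, Nfib, Mir99ahg and Rbfox1 turned to 0.28, -0.25, -0.10, -0.10, -0.17 and -0.15. The cause of these moves was not tested, except that thinning leaves fewer UMIs and the stricter rule fewer cells and 6 mice. Over 147 results for single genes, 2455 of 2492 settings kept direction and side of the threshold, 6 reversed, 4 lost and 27 gained a call. Of the gained calls 16 were in the dKO comparison and 11 in the interaction, most of them with no filter on low counts. The number of cells limits control mouse S04 most, with 14 cells.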
